A study of Mus musculus with 14 samples.

Results

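Cd274 and Pdcd1lg2 are the mouse genes of PD-L1 and PD-L2, the 2 ligands of the inhibitory T cell receptor PD-1. They were followed through every probe set annotated to one of these symbols alone. Each gene had 1 such probe set on each of 2 array designs, which makes 4 probe sets in all: 17358544 and 10462390 for Cd274 (Entrez gene 60533), and 17358552 and 10462398 for Pdcd1lg2 (Entrez gene 58205). On the first design the 2 genes were among 22180 genes with a probe set of a single symbol, and both were among the 16635 genes bright enough on average to be tested. All levels below are log2 expression values, so that a difference of 1 is a doubling, and they are comparable between tumours for 1 probe set and not between probe sets.

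The tumours were grown in C57BL/6 mice from B16-F10, a pigmented mouse melanoma line, and total RNA was hybridised to Affymetrix whole-transcript arrays. The control group carried sensitive B16-F10 cells, while Res 499 and Res 177 are sublines isolated from unirradiated tumours of mice whose other flank tumour had been irradiated under CTLA4 blockade and which had resisted or relapsed. The protocol in the labels gives 20 Gy to 1 flank on day 8 and the CTLA4 antibody 9H10 on days 5, 8 and 11. There were 5 control, 7 Res 499 and 2 Res 177 tumours, and the first design held all but 1 control and 1 Res 177 tumour, which were on the second. The labels do not state whether the measured tumours had been treated, whether a subline is a single clone, or the age and sex of the mice. Nor do they say that each tumour had its own mouse, so the p-values speak of tumour-to-tumour spread here, some of which may be technical. Replicate numbers follow the order of deposition and only name a tumour.

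PD-L1 is made by many cell types, tumour cells among them, and by myeloid cells, while PD-L2 is best known from dendritic cells and macrophages. Interferon gamma induces both genes through the JAK kinases and the transcription factor IRF1, and interleukin 4 induces Pdcd1lg2 through STAT6. Beside PD-1, PD-L1 binds CD80 on the same cell surface, and PD-L2 binds RGMB. Both genes lie next to each other in the same orientation on mouse chromosome 19, with Jak2 a few genes away.

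The sequence just before the transcript start of each gene is shown because the gene pair is a neighbouring one that responds to shared signals, and these windows let the letters of the relevant motifs be looked for. Sequences are from RefSeq on GRCm38.p6, plus strand, read 5′ to 3′, and both genes matched by symbol. The Cd274 window is chr19:29367293-29367437, the 145 bases between the end of the Plgrkt gene record and the Cd274 transcript start used here. The Cd274 gene record begins earlier, at 29362107, and overlaps that of Plgrkt, so the window lies inside it. Capitals mark a GC box (GGGCGG). The Pdcd1lg2 window is chr19:29410669-29410918, the 250 bases before its transcript start, and capitals mark a palindrome with the spacing bound by STAT6 (TTC, any 4 bases, GAA).
Cd274: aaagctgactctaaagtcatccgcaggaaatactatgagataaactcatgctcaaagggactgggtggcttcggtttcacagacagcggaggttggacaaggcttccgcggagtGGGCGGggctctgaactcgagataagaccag
Pdcd1lg2: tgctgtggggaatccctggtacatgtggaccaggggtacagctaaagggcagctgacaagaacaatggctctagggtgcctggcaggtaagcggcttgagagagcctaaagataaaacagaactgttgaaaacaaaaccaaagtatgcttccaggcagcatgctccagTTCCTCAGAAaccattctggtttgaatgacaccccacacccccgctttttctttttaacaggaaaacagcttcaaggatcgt

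In all, 7 motifs were searched on both strands of the full 250 bases before each start, which for Cd274 reach beyond the 145 bases printed. The GC box of Cd274 spans -31 to -26 from the start, and 32.7% of 32851 RefSeq promoter windows of 250 bases hold one. The TTCCTCAGAA of Pdcd1lg2 spans -82 to -73, and 5.85% of the windows hold a match to that motif. The other 5 motifs were an interferon-stimulated response element core (GAAA, any 2 bases, GAAA; in 2.98% of windows), an interferon gamma activated site core (TTCNNNGAA, 7.02%), an AP-1 core (TGANTCA, 6.75%), an E-box (CACGTG, 6.02%) and a TATA box (TATAAA, 12.4%). None of those 5 was found in the 250 bases before either start. A match is a description of these letters, and elements farther from the start were not searched.

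All 12 tumours of the first design carried high melanocyte markers, with a mean over 9 genes (Pmel, Tyr, Dct and others) between 12.56 and 12.90. Keratinocyte markers were between 5.17 and 5.37 on average in the control and Res 499 tumours and were at 7.93 in the Res 177 tumour. Leukocyte markers (the mean of Ptprc, Cd53, Coro1a, Laptm5 and Itgb2) were between 6.35 and 6.83 in control tumours and between 6.23 and 8.23 in Res 499 tumours. They split the Res 499 tumours, with replicates 1, 2, 3 and 5 between 7.86 and 8.23 and replicates 4, 6 and 7 between 6.23 and 6.89. In bulk tumour RNA, fewer cells of a type and less RNA per cell cannot be told apart, and the share of either ligand made by tumour cells or by host cells was not measured.

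Cd274 was above every control tumour in most Res 499 tumours, Pdcd1lg2 lay on both sides of the control range, and the signals of both probe sets changed unequally in a test of that difference. Cd274 was at 7.77, 7.70, 7.91 and 8.29 in control replicates 2 to 5, a mean of 7.92 ± 0.26 (SD, n = 4). In the 7 Res 499 tumours it ran from 8.18 through a median of 8.54 to 9.12, a mean of 8.61 ± 0.38 (SD, n = 7). The highest were replicates 2 and 3, at 9.11 and 9.12, and the lowest were replicates 5 and 7, at 8.25 and 8.18. Of the 7, 5 were above every control tumour, and the other two lay below control replicate 5 alone and above the other controls, so the groups overlapped. At least 5 of 7 Res 499 tumours were above every control for 9.38% of all genes tested.

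The Cd274 difference was 0.70 (SE 0.19, 95% confidence interval 0.29 to 1.11), a 1.62-fold higher level with an interval of 1.22 to 2.16. It did not pass the test across all genes (limma, Benjamini-Hochberg adjusted p = 0.138, unadjusted p = 0.00301), where 0.144% of genes were called higher and 0.355% in either direction, and 6.68% were higher at an unadjusted p below 0.05. Cd274 ranked 362 of 16635 by p. The two-sided exact permutation test of this single value over the 11 tumours gave p = 0.0182, where the smallest p these group sizes allow is 0.00303. With arrays weighted by how closely they followed the fit, the difference was 0.72 and limma's adjusted p was 0.0448, so the call depends on that setting.

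Pdcd1lg2 was at 5.28, 5.33, 5.49 and 5.34 in control replicates 2 to 5, a mean of 5.36 ± 0.09 (SD, n = 4). In the 7 Res 499 tumours it ran from 5.17 through a median of 5.39 to 5.65, a mean of 5.38 ± 0.16 (SD, n = 7). Res 499 tumours lay on both sides of the control range, 2 above every control (replicates 1 and 3) and 2 below (replicates 5 and 7). The difference was 0.02 (SE 0.09, interval -0.17 to 0.22), with limma's adjusted p = 0.940 and an exact permutation p = 0.803. As a fold of the measured signal, the interval was 0.890 to 1.16. The probe set was dim, with a mean below the array medians of 5.70 to 5.80, and among 2166 genes within 0.25 of its mean level 1.85% differed by at least 0.5 between Res 499 and control, against 4.94% of 1275 genes around the level of Cd274. The interval therefore bounds the change in signal and not that in transcript.

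**Figure D1:**
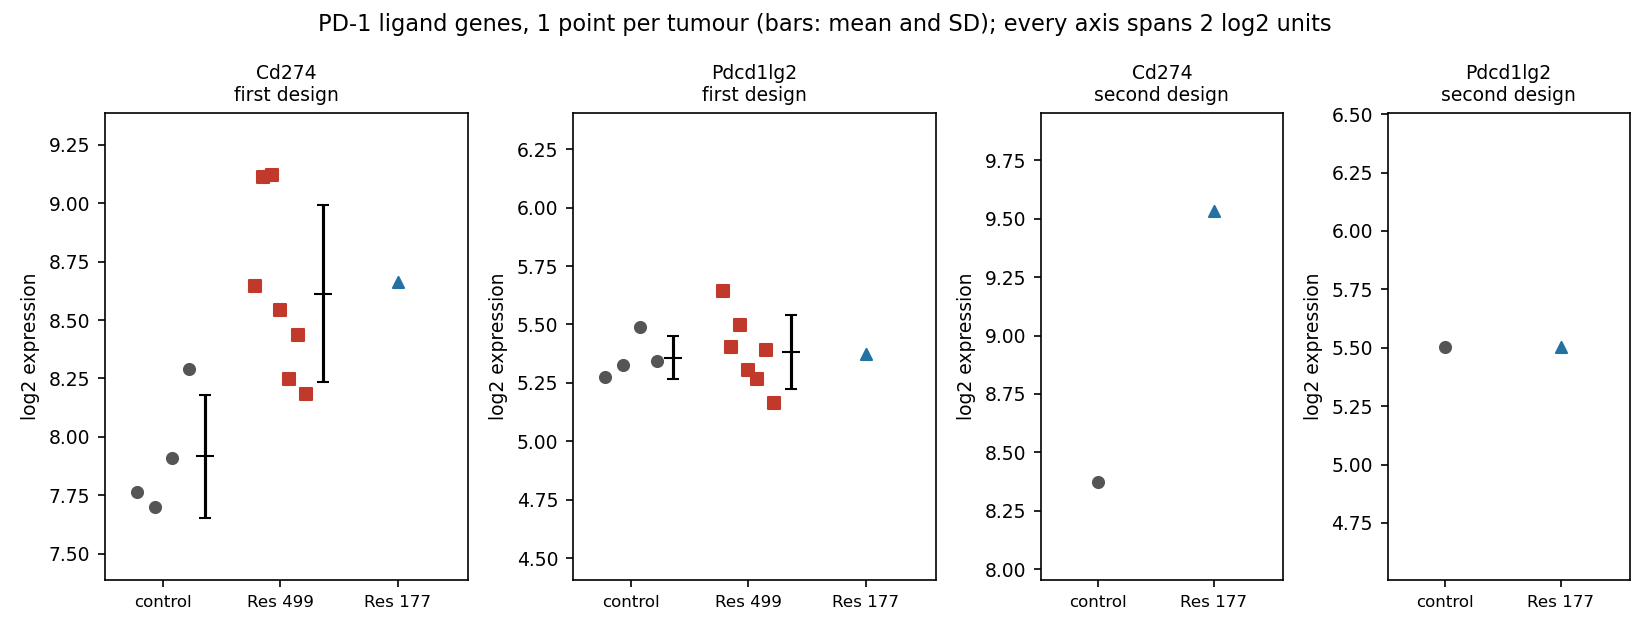
Log2 expression of Cd274 and Pdcd1lg2 by group, 1 point per tumour, on the first design (left pair of panels) and on the second (right pair); bars give mean and SD of control (n = 4) and Res 499 (n = 7), and every vertical axis spans the same number of log2 units. Cd274 points of Res 499 reach from 8.18 to 9.12 against 7.70 to 8.29 in control, while the Pdcd1lg2 ranges overlap on both sides.

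Whether the signals of the 2 probe sets changed unequally was tested with the difference of their log2 levels within each tumour, which was compared between groups and not read as a ratio of the transcripts. This difference was 2.56 ± 0.26 (SD, n = 4) in control tumours, between 2.37 and 2.95. It was 3.23 ± 0.31 (SD, n = 7) in Res 499 tumours, between 2.98 and 3.71, so that 7 of 7 lay above every control tumour. The shift of 0.67 gave an exact two-sided permutation p of 0.00303, the smallest these groups can give, and is 1 of 3 such single-value tests, unadjusted. Setting every other tested gene against Pdcd1lg2 in the same way gave no overlap in this direction for 0.475% of them, 79 of 16634 genes. Leaving out each tumour in turn kept the shift between 0.59 and 0.80. Since the Pdcd1lg2 probe set is dim and large differences were rarer at its level, an unequal change in signal does not show that the transcripts changed unequally.

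**Figure D2:**
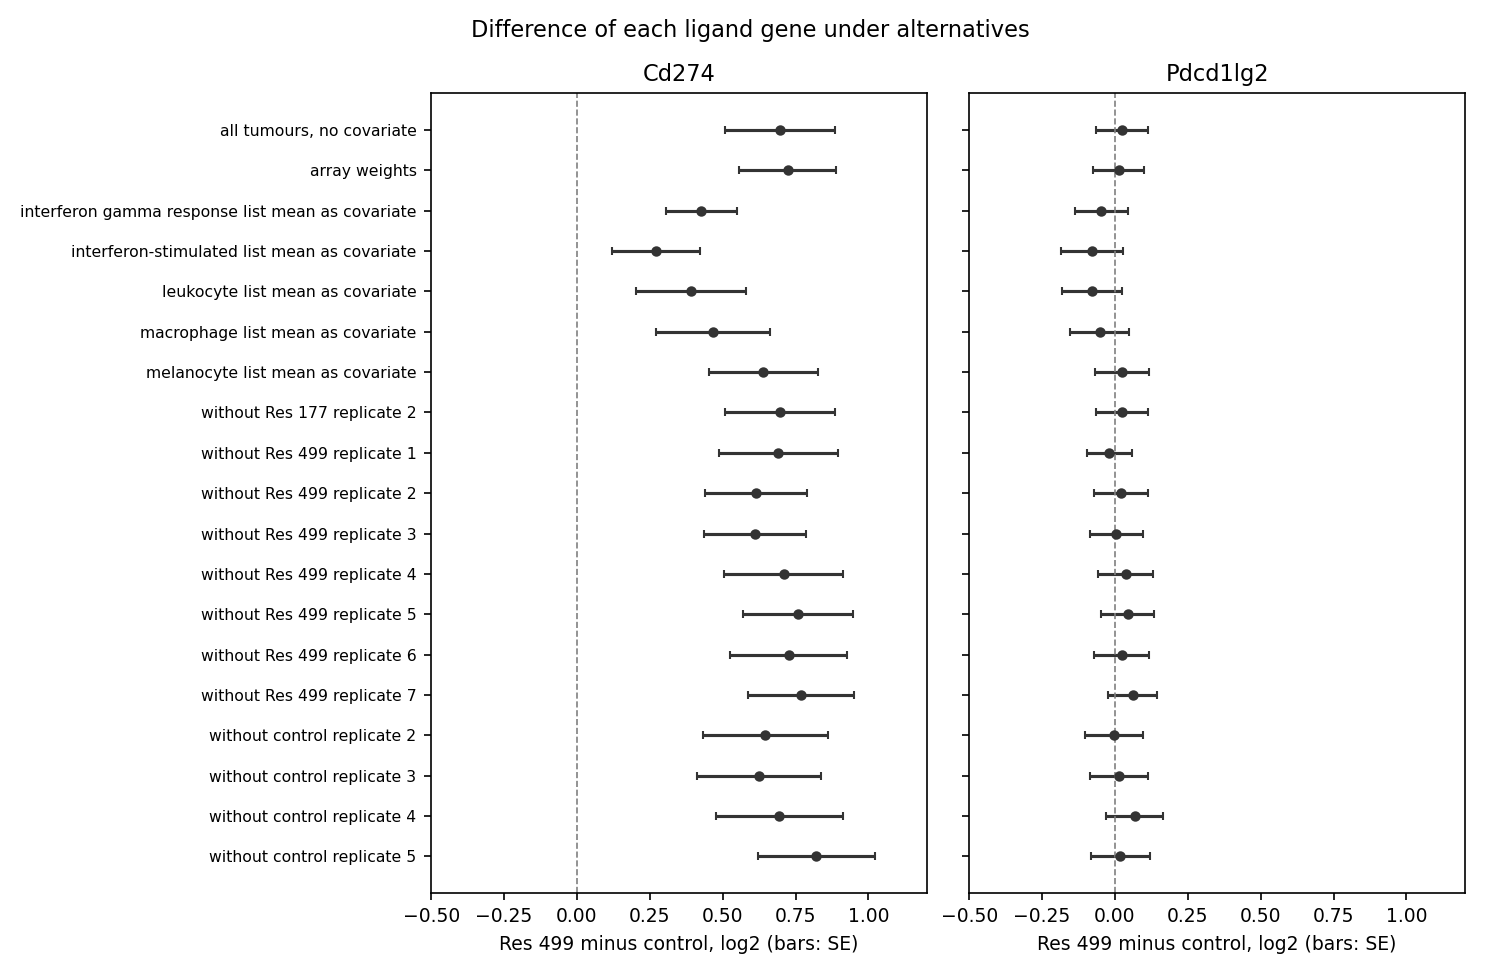
Estimates of the Res 499 minus control difference of each ligand (log2; bars give the SE) with all tumours, array weights, each list mean as a covariate and each tumour left out. The Cd274 estimate is 0.70 without a covariate and 0.27 with the interferon-stimulated list mean as a covariate, while Pdcd1lg2 estimates lie on both sides of 0.

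In Res 177 the direction for Cd274 was the same, on 1 tumour per design. On the first design the Res 177 tumour was at 8.66 for Cd274, above every control tumour, as it was for 22.5% of all genes. The difference to control was 0.75 (SE 0.34, interval 0.01 to 1.48), with limma's adjusted p at 0.9998 and an unadjusted p of 0.0468, and its spread is taken from the other groups. Of all genes, 0.210% were called higher in that comparison. The interval of Res 499 minus Res 177 for Cd274, -0.75 to 0.65 around -0.05, is too wide to order the sublines, and 0.234% of genes were called in that comparison. Pdcd1lg2 was at 5.37 in the Res 177 tumour, 0.01 above the control mean (SE 0.16). Joining both sublines as resistant (8 tumours) against sensitive (4 tumours) gave 0.70 for Cd274 (SE 0.18, limma adjusted p = 0.101, with 0.289% of genes called higher) and 0.02 for Pdcd1lg2 (SE 0.08, adjusted p = 0.938). Of those 8 tumours 7 were Res 499, so this fit largely repeats the Res 499 comparison and does not test resistance across sublines.

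The second design held 1 tumour per group and allows no test. Cd274 was at 8.37 in the control tumour and 9.53 in the Res 177 tumour, a difference of 1.16 or 2.23-fold. A difference of at least 1 in this direction was seen for 1.22% of 14954 genes, and 133 genes differed by more than Cd274. Pdcd1lg2 was at 5.50 in both tumours, at the same value, as were 3.34% of all genes; it lay below the brightness filter there. Some list means were higher beside Cd274 on this design, while others changed little or were lower. The leukocyte mean was 6.87 in control and 8.03 in Res 177, the macrophage mean was 6.93 and 7.88, and the mean of the interferon gamma response genes was 7.67 and 8.97. The keratinocyte mean was 6.10 and 7.69. By contrast, the T cell mean was 6.03 and 6.19, the melanocyte mean 13.10 and 13.17, and the endothelial mean 7.68 and 7.48. The part of these cell type markers in the Cd274 difference was not tested.

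The Cd274 signal also varied more than that of Pdcd1lg2 with all groups pooled, a spread that includes the difference between groups. Over the 12 tumours of the first design the SD of Cd274 was 0.47 and its range 1.42. Of 1275 genes of like mean level (within 0.25), 95% had a lower SD. For Pdcd1lg2 the SD was 0.13 and the range 0.48, with a lower SD in 50.1% of 2166 genes of like level. The mean level of Pdcd1lg2, 5.37 was low, with 33.4% of all genes lower, and that of Cd274, 8.39, was above 71.7% of genes.

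Beside the leukocyte and interferon genes, the tumours did not line up by a single order. Res 499 replicates 2 and 3, highest in Cd274, were also highest in the leukocyte mean (8.23 and 8.20), the interferon gamma response mean (8.75 and 8.71) and Irf1, the factor that activates Cd274 downstream of interferon gamma (8.94 and 9.30). Res 499 replicate 6 departed from this. Its Cd274 level of 8.44 was above every control tumour, while its Irf1 level of 7.05 was below every control, its interferon gamma response mean was 6.73 against 6.56 to 7.69 in control, and its leukocyte mean of 6.82 lay inside the control range. Res 499 replicate 7, at 8.18 for Cd274, was above 3 of 4 controls with a leukocyte mean of 6.23, below every control. Conversely, replicate 5 had a leukocyte mean of 7.86 and a Cd274 level of 8.25, below control replicate 5.

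**Figure D3:**
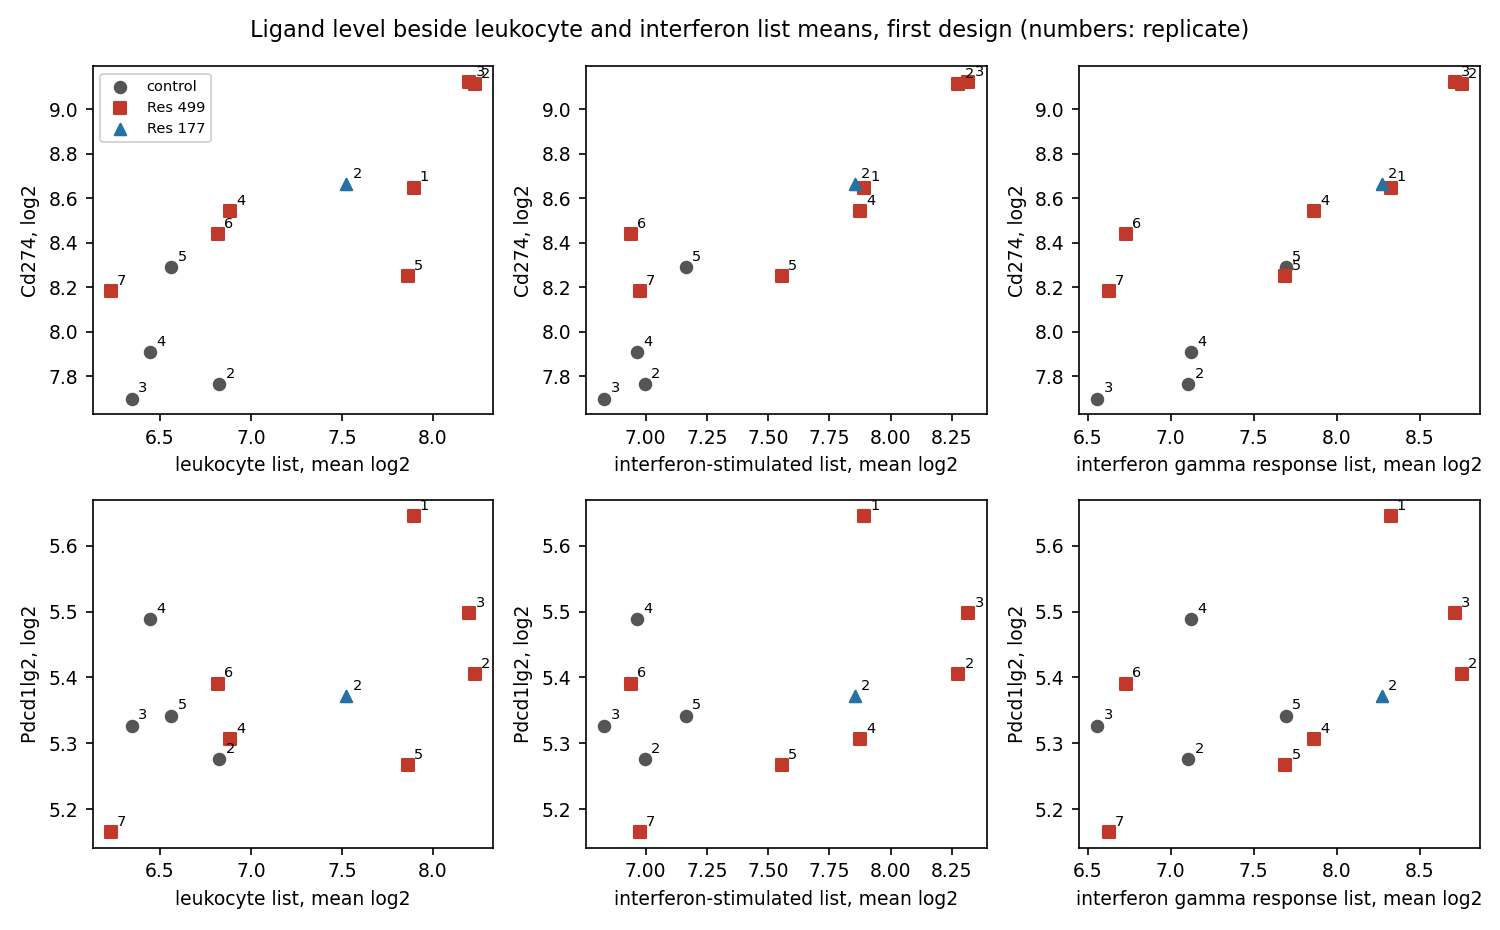
Level of each ligand (log2, vertical axis) against the mean log2 level of the leukocyte, interferon-stimulated and interferon gamma response lists (horizontal axis), 1 point per tumour of the first design, labelled by replicate number. Res 499 replicates 6 and 7 stand at low list means with Cd274 at 8.44 and 8.18.

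Adding a list mean to the fit as a covariate gave smaller Cd274 differences between Res 499 and control. With the leukocyte mean the difference was 0.39 (SE 0.19, limma adjusted p = 0.461), with the macrophage mean 0.47 (adjusted p = 0.384) and with the interferon-stimulated mean 0.27 (SE 0.15, adjusted p = 0.494). The interferon gamma response mean left 0.43 (SE 0.12, adjusted p = 0.164, unadjusted p = 0.00440), and the melanocyte mean left 0.64 (adjusted p = 0.113). Each kept its sign and did not pass the threshold. Pdcd1lg2 was at -0.08, -0.05, -0.08, -0.05 and 0.02 with the same covariates in that order. The leukocyte, macrophage and interferon means were themselves higher in most Res 499 tumours, so these covariates and the group share part of their variation.

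Within groups, Cd274 rose with the interferon gamma response mean, by 0.39 per unit of that mean (SE 0.08, limma adjusted p = 0.0246), and 1.38% of all genes had a positive slope that passed. The slope did not pass without Res 499 replicate 2 (0.35, adjusted p = 0.115), without replicate 3 (0.35, adjusted p = 0.124) or without replicate 7 (0.40, adjusted p = 0.157). On the interferon-stimulated mean the slope was 0.61 (SE 0.14, adjusted p = 0.0522; 1.36% of genes passed with a positive slope), and on the leukocyte mean 0.34 (SE 0.12, adjusted p = 0.285; 2.54% of genes passed). The corresponding Pdcd1lg2 slopes were 0.10 (SE 0.06, adjusted p = 0.634), 0.15 (adjusted p = 0.677) and 0.12 (adjusted p = 0.705), and the difference between the slopes of the 2 ligands was not tested.

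Across the 7 Res 499 tumours alone, 17 relations were computed, and 0 passed after adjustment by either measure (4 by Pearson's r and 6 by Spearman's rho at an unadjusted exact p below 0.05). Without replicate 5 the number that passed by Pearson's r was 4, namely Cd274 with the T cell, dendritic, leukocyte and macrophage means. Without replicate 6 it was 2, Cd274 with the interferon-stimulated and the interferon gamma response means. Cd274 against the interferon gamma response mean had r = 0.850 (exact permutation p = 0.0210, adjusted p = 0.159) and rho = 0.929 (exact p = 0.00675, adjusted p = 0.0810). Without replicates 6 and 7, which lie farthest from the median list level, r was 0.969 over 5 tumours. Against the interferon-stimulated mean r was 0.853 (exact permutation p = 0.0202, adjusted p = 0.159) and 0.995 without the same tumours. Pdcd1lg2 against Cd274 had r = 0.609 (exact permutation p = 0.146, adjusted p = 0.275) and rho = 0.857 (exact p = 0.0238, adjusted p = 0.0810). For leukocyte and macrophage means the Res 499 tumours fell into separate clusters of 4 and 3, so no coefficient with either ligand is printed for them. These means are still counted among the 17 relations. Their passes without replicate 5 pool both clusters and do not show a relation within a cluster.

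The receptors and partners of the ligands did not pass the test in Res 499 against control, 0 of 3 by limma over all genes and 2 of 3 at an unadjusted p below 0.05, which 13.0% of all genes reached in that comparison. Pdcd1, which encodes PD-1 on T cells, was at 5.42 ± 0.25 (SD, n = 4) in control and 5.64 ± 0.22 (SD, n = 7) in Res 499, a difference of 0.22 (SE 0.13, adjusted p = 0.540). Cd80, the costimulatory ligand that binds PD-L1 in cis, was at 6.33 ± 0.20 and 6.73 ± 0.23, a difference of 0.40 (SE 0.13, adjusted p = 0.198). Rgmb, which encodes the second partner of PD-L2, was at 10.19 ± 0.30 and 9.77 ± 0.21, a difference of -0.42 (SE 0.14, adjusted p = 0.222). On the second design Cd80 differed by 0.55, Pdcd1 by 0.02 and Rgmb by -0.35 in Res 177 against control. The B7 family, costimulatory and inhibitory ligands related to PD-L1, had 6 tested genes, of which 4 were higher and 2 lower in Res 499, with 0 called, 2 at an unadjusted limma p below 0.05 and a median difference of 0.26.

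The pathway that induces Cd274 was described by fixed lists, whose counts are read against a median of 0.0053, 51.7% higher and 13.0% at an unadjusted p below 0.05 over all genes. Of 16 tested genes from the interferon receptors to IRF1, 13 were higher and 3 lower in Res 499, with 0 called by limma, 2 at an unadjusted p below 0.05 and a median of 0.11. Ifngr1, the ligand-binding chain of the interferon gamma receptor, differed by 0.07 (SE 0.08, adjusted p = 0.778), and the receptor kinases Jak1 and Jak2 by 0.02 (SE 0.08, adjusted p = 0.936) and -0.06 (SE 0.14, adjusted p = 0.891). Irf1 was at 7.78 ± 0.35 (SD, n = 4) and 8.26 ± 0.86 (SD, n = 7), a difference of 0.48 (SE 0.39, adjusted p = 0.663), with both of the lowest Res 499 tumours below every control.

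Genes downstream of interferon sat higher as groups, but only 1 passed. In the interferon gamma response list 18 of 18 tested genes were higher in Res 499, with a median of 0.68. Of these, 1 was called, the chemokine Cxcl10, which was at 8.25 ± 0.53 (SD, n = 4) in control tumours and rose by 1.33 (SE 0.25, limma adjusted p = 0.0482) to 9.58 ± 0.41 (SD, n = 7). Over all 19 lists Cxcl10 was the 1 gene called of 181 tested, while 0.355% of all 16635 genes were called in either direction. This count over all lists became 0 with array medians set equal, with cyclic loess and with no filter on dim genes, and 6 with array weights. The same count was also 0 without Res 499 replicate 1, 3 or 4 or control replicate 2, 3 or 4, and it was highest, 4, without Res 499 replicate 2. In the interferon-stimulated list 19 of 20 tested genes were higher, with a median of 0.81, 0 called and 13 at an unadjusted p below 0.05, against 13.0% of all genes. The interleukin 4 and STAT6 response list, the signal best known for Pdcd1lg2, had 11 of 13 genes higher, a median of 0.47, 0 called and 5 at an unadjusted p below 0.05. The macrophage list had 13 of 13 higher (median 0.84), the leukocyte list 5 of 5 (median 0.71) and the T cell list 11 of 11 (median 0.23), with 0 called in each and 5, 4 and 1 at an unadjusted limma p below 0.05.

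Genes that act on PD-L1 after transcription lay on both sides of 0. Their list was not split by whether a gene raises or lowers PD-L1, so its counts do not speak of the PD-L1 level. In the stability and trafficking list 6 of 17 tested genes were higher and 11 lower in Res 499, with a median of -0.04, 0 called and 3 at an unadjusted limma p below 0.05, against 13.0% of all genes. Cmtm6, which keeps PD-L1 at the cell surface, differed by -0.20 (SE 0.14, adjusted p = 0.592). Other transcription factors of Cd274 had 5 of 11 higher and a median of -0.04, again with 0 called and 3 at an unadjusted limma p below 0.05. Protein levels were not measured.

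In the Res 177 tumour of the first design the interferon gamma response list had 18 of 18 tested genes above control (median 0.98) and the interferon-stimulated list 20 of 20 (median 0.93), with 0 called by limma in either and 2 and 6 at an unadjusted p below 0.05, which 4.08% of all genes reached. In the same tumour 6 of 7 keratinocyte markers were called higher, with a median of 3.01. The part of this skin signal in the Cd274 level there was not tested.

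**Figure D4:**
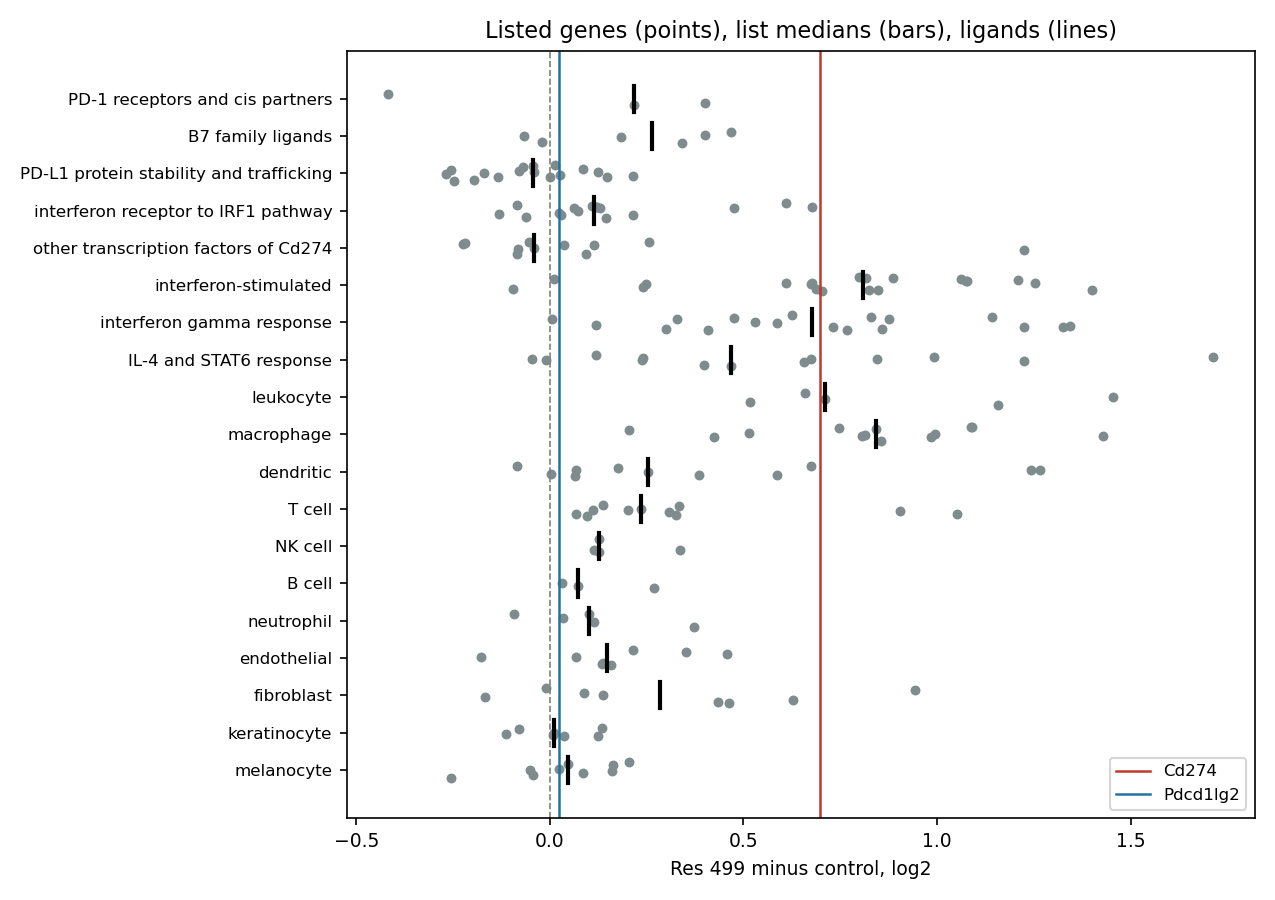
Res 499 minus control difference (log2) of each tested gene of the fixed lists (points) with list medians (black bars) and both ligands (vertical lines). Cd274, at 0.70, lies near the medians of the leukocyte (0.71) and interferon gamma response (0.68) lists, and Pdcd1lg2, at 0.02, lies near 0.

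Over the 12 tumours of the first design, which share arrays of 1 run of normalization, the highest Pearson correlations with Cd274 were for H2-T24 (0.967), Nod1 (0.945), Tap2 (0.930), Apol9a (0.929), Itgal (0.922) and Sp100 (0.920). Tap2 is a subunit of the peptide transporter for MHC class I, H2-T24 is a gene of the MHC region, Nod1 is a sensor of bacterial peptidoglycan, and Itgal is an integrin of leukocytes. For Pdcd1lg2 they were Pdia5 (0.932), Dock5 (0.899), Gemin5 (0.898), Plvap (0.895), Tspan18 (0.891) and Tgfb1i1 (0.883). The ligands correlated with each other at 0.421, which placed Pdcd1lg2 at rank 1922 of 16634 for Cd274. These are descriptions over the same tumours, without a test, and they include the difference between groups. By deviations from group means over 11 tumours, H2-T24 stayed at rank 1 and Tap2 at rank 3 for Cd274. Nod1 was then at rank 19, Apol9a at 21, Itgal at 33 and Sp100 at 109. The 6 genes named for Pdcd1lg2 were at ranks 1 to 17. H2-T24 was dim, with a mean level of 5.55.

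The genes around the pair on chromosome 19 had smaller differences than Cd274. The 6 tested genes on each side in the RefSeq order gave 12 neighbours, of which 6 were higher in Res 499 and 0 were called, with a median of 0.01 and a range of -0.38 to 0.23. Plgrkt, whose gene record overlaps that of Cd274, differed by 0.04, and Mlana, a melanocyte antigen gene beyond Pdcd1lg2, by 0.16. Insl6 had the highest of the 12 differences, 0.23 (limma adjusted p = 0.302, unadjusted p = 0.0248), and was chosen here after its value was seen. It was above every control in 6 Res 499 tumours, against 5 for Cd274, and at least 5 were for 9.38% of all genes tested. Its probe set was dim, with a control mean of 5.17. In Res 177 Insl6 differed from control by 0.32 on the first design and by 0.66 on the second.

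**Figure D5:**
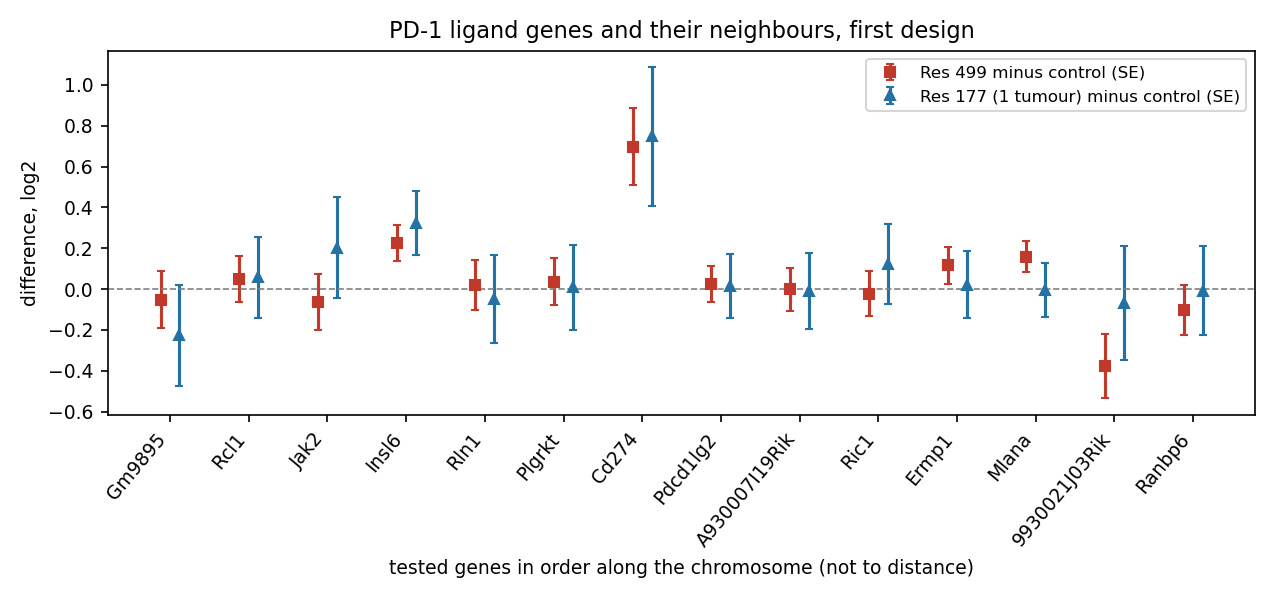
Res 499 minus control and Res 177 minus control differences (log2; bars give the SE from limma, with 1 Res 177 tumour) of Cd274, Pdcd1lg2 and the 12 tested neighbours in chromosomal order, evenly spaced. The Res 499 difference of 0.70 for Cd274 lies above those of all 12 neighbours, which span -0.38 to 0.23.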

How the data were processed

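Total RNA of 14 tumours was measured on 2 Affymetrix designs. Each deposited value is the log2 level of a probe set in a tumour, made by the authors with RMA and oligo according to the submitters' processing notes. The versions, genome build and annotation they used are not given in the sources used. Their range gave the log2 scale. The designs were normalized separately and never pooled. Array medians lay between 5.70 and 5.80 on the first design.

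Probe sets with 1 symbol in the platform annotation were used (23521 of 41345 on the first design), a gene being represented by its brightest. The 25% of genes with the lowest mean were left out (5545 genes). Tests used limma 3.58.1 (lmFit, then eBayes) under R 4.3.3, with all 3 groups in 1 fit, Benjamini-Hochberg adjustment over 16635 genes and a threshold of 0.05. Single values and correlations had exact permutation tests (scipy 1.17.1), and slopes were fitted with groups as terms. The fit was tested on simulated data.

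Both members and the 19 lists were chosen with earlier results of these data known. Named were both ligands, a set of partners, inducers and markers fixed with the lists, called list members, the 6 genes most like each ligand and the nearest 6 tested genes on each side. Precision is limited by how many tumours there are, as arrays have no read depth. Alternatives covered the filter, probe set choice, normalization, array weights, list covariates and leaving out each tumour. Slopes under other settings were added after seeing the data.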

Additional observations from a re-analysis of the deposited data

Results flagged for a closer look

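Of 66 groups of tumours examined for a tumour far from the rest, 5 had one, and chance alone gives about 1 in 20. Res 499 replicate 2 stood apart within its group in Pdcd1, at 6.11 with the nearest Res 499 tumour at 5.64, and in Mlana, at 13.14 with the nearest at 12.95. Control replicate 2 stood apart in Adgre1, the macrophage marker F4/80, at 7.28 with the nearest control at 6.57. Control replicate 5, the control tumour with the highest Cd274 level, stood apart in the NK cell list mean, at 5.40 with the nearest control at 5.20. It also did so in the keratinocyte list mean, at 5.37 with the nearest control at 5.20. No tumour stood apart in this way for Cd274 or Pdcd1lg2 themselves. The NK cell and keratinocyte means of control replicate 5 lay below the array medians of 5.70 to 5.80. That tumour was also the highest control in the dim B cell and neutrophil means, at 5.32 and 5.30. Whether low signals were raised together on its array was not tested.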

How the results depend on the processing

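Of the alternatives to the Cd274 difference between Res 499 and control, array weights alone brought it past the threshold (0.72), and the same holds for resistant against sensitive (0.74); leaving out each tumour gave 0.61 to 0.82 and 0.63 to 0.83 for these comparisons, with no call. The Pdcd1lg2 difference of Res 499 against control turned to -0.079 with the leukocyte covariate, -0.052 with macrophage, -0.079 with interferon-stimulated and -0.046 with interferon gamma response, and ran from -0.020 to 0.067 with 1 tumour left out. For resistant against sensitive these values were -0.082, -0.054, -0.081 and -0.050, and from -0.015 to 0.066. For Res 177 against control they were -0.099, -0.075, -0.11 and -0.10, with -0.0023 under array weights, and from -0.014 to 0.057. Res 499 minus Res 177 for Cd274 became 0.050 and 0.13 with the interferon-stimulated and interferon gamma response covariates and ran from -0.13 to 0.022 with 1 tumour left out; for Pdcd1lg2 it ran from -0.033 to 0.047. None of these signs is separated from 0 by its error, and the cause was not tested.

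Slopes of Cd274 under other settings, added after seeing the data, passed on the interferon-stimulated mean with array medians set equal (0.60) and array weights (0.63), and on the leukocyte mean with array weights (0.40). With 1 tumour left out they ran from 0.54 to 0.80 and from 0.27 to 0.41, and on the interferon gamma response mean from 0.35 to 0.47. The Pdcd1lg2 slope on the interferon gamma response mean passed with array weights (0.16, adjusted p = 0.0413).

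Genes called in Res 499 against control numbered 59, and 39 with array medians set equal, 356 with array weights, 27, 28, 13, 39 and 228 with the leukocyte, macrophage, interferon-stimulated, interferon gamma response and melanocyte covariates, and with 1 tumour left out between 6, when it was control replicate 4, and 196, when it was Res 499 replicate 2. For resistant against sensitive the 102 became 64, 330, 37, 43, 14, 52 and 182 in the same order, and from 9 to 141. The 35 in Res 177 against control became 101 with no filter and 2 with the lowest 50% left out; that comparison has no value without its 1 tumour. The 1 called gene of the lists became 0 with array medians set equal, cyclic loess, no filter, and the leukocyte or macrophage covariate, 2 with the stricter filter, the mean of probe sets or the interferon gamma response covariate, 5 with the melanocyte covariate and 6 with array weights, and ran from 0 to 4 with 1 tumour left out. Relations past the threshold ran from 0 to 4. No paired analysis was possible because the labels give no replicate numbers. The number of tumours, and 1 Res 177 tumour per design, limit the precision.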
